A study of Mus musculus with 56 samples.

Results

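The genes described here are 7 glucocorticoid-induced genes, counted with the receptor itself: Nr3c1, Fkbp5, Tsc22d3, Klf9, Ddit4, Sgk1 and Zbtb16. They were chosen by symbol, as the receptor and well-known targets, and all 7 were found among the 55011 gene symbols of the count table. Their RNA was followed in regulatory T cells (Tregs) over tissue, diet, week and culture.

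Glucocorticoids cross the cell membrane and bind the receptor encoded by Nr3c1, which is held in the cytoplasm by HSP90 and its co-chaperones. The loaded receptor enters the nucleus and binds palindromic DNA elements, from which it raises some genes, while it represses many cytokine genes. In T cells the hormone is known for restraining inflammation and for killing thymocytes. Several of the targets also answer to other signals, such as low oxygen for Ddit4 and osmotic stress for Sgk1.

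Mouse Tregs were measured by bulk RNA-seq in 56 libraries, each made from 1000 cells sorted in 2 rounds. In the diet experiment, vTreg53 Tg+ C57BL/6 mice, whose transgenic T cell receptor comes from 1 Treg clonotype, were 12 weeks old when feeding began. Clonotype-positive Tregs were taken from spleen (26 libraries) and visceral adipose tissue (VAT, 25 libraries) at week 0, and after 2, 4, 8 or 16 weeks of the diets labelled NCD and HFD, with 2 or 3 libraries per group. All spleen and VAT libraries of this experiment share the receptor transgene, so no polyclonal Tregs were compared within it. The labels speak of recipient mice without naming a donor. In the culture experiment, mice carrying both reporters, PPARgamma-tdT (KI/KI) and Foxp3-GFP (KI/y), 8 to 10 weeks old, were given IL-33 to expand VAT Tregs. Sorted tdT-positive VAT Tregs then spent 3 days in medium holding IL-33 (10 ng/ml) together with IL-2 (2000 U/ml). Control wells had no IFNa (3 libraries) and the others had IFNa at 50 ng/ml (2 libraries), and GFP-positive cells were sorted at the end. The labels do not say whether libraries of a group came from separate animals or cultures, so each p-value speaks only to library-to-library spread, which may be technical.

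Total counts per library were 3248686 to 5826965 in spleen, 3319873 to 6091439 in VAT and 5408696 to 8764390 in culture. Levels are given in CPM, with library sizes scaled by the trimmed mean of M-values (TMM) over all 56 libraries. At these depths 3 counts, taken as the floor, were worth 0.417 to 0.974 CPM, and floors cover counting error only. Spleen libraries also carry the VAT tissue label, so titles were used. Summed CPM of 6 VAT Treg markers was 404.6 to 1091 in the libraries titled spleen and 3161 to 10000 in those titled VAT. Summed CPM of 6 general Treg markers was 2986 to 4360 in spleen and 5721 to 8607 in VAT, without overlap. Of the markers of other cells, 6 adipocyte genes summed to at most 7.38 CPM, 9 macrophage genes to at most 24.4 CPM and 6 B cell genes to at most 31.3 CPM in any mouse library, and Adipoq was at 0 in 23 of 25 VAT libraries. Other lists reached higher sums: 6 innate-like T cell and ILC genes up to 260.9 CPM, 5 endothelial genes up to 373.1 CPM, 5 erythroid genes up to 109.6 CPM and 7 NK and CD8 cell genes up to 103.6 CPM. In bulk libraries, fewer cells expressing a gene and less RNA per cell cannot be told apart.

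The sequences shown next are stretches before transcription start sites of 3 members on which the results turn, Sgk1, Tsc22d3 and Fkbp5. Each lies within the 250 bases before the start site. They come from the RefSeq promoter table (build GRCm38.p6, the same coordinates as mm10), with GENCODE M21 exons removed. Windows of 5 members were used (Sgk1, Ddit4, Fkbp5, Klf9 and Tsc22d3). Each sequence reads 5′ to 3′ on the gene's strand, and capitals mark the hexamer AGAACA, 1 arm of the receptor's binding element, on either strand. The full palindrome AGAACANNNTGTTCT contains 2 such hexamers and is in capitals whole, spacer included. The Sgk1 stretch, on the plus strand, lies at chr10:21993640-21993889, inside the span of the gene (chr10:21882184-21999903) and before the start of a shorter transcript. The Tsc22d3 stretch, on the minus strand, lies at chrX:140600660-140600772, before the gene (chrX:140539528-140600659). The Fkbp5 stretch, on the minus strand, lies at chr17:28486150-28486399, inside the gene (chr17:28399094-28517527) and before an inner start site.
Sgk1: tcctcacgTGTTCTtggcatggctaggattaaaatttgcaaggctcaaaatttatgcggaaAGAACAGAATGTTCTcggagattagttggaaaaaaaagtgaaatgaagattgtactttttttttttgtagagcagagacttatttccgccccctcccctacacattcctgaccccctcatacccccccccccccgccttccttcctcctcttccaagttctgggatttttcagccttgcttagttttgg
Tsc22d3: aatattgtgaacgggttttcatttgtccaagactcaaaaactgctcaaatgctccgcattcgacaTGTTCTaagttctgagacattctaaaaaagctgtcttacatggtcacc
Fkbp5: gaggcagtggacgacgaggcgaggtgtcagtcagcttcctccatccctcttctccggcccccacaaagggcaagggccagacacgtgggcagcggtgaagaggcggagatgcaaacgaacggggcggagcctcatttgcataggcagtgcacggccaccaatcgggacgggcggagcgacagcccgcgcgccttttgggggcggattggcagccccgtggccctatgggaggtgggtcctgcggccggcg
The full palindrome was present in 3 of 32851 windows of 250 bases before RefSeq start sites (0.00913%), and 1 of these is the Sgk1 window shown, with its match at position -189 from the start site and another hexamer farther upstream. The Tsc22d3 stretch is the 113-base part of its window (chrX:140600523-140600772) outside exons, and does not reach the RefSeq start site. It holds 1 hexamer, at position -185 from that start site. The hexamer was present in 5284 of all windows (16.1%). Of the other 5 Sgk1 windows, 2 hold 1 hexamer each, and the other 2 Tsc22d3 windows hold none. No AGAACA on either strand was found in the Fkbp5, Klf9 or Ddit4 windows of 250 bases, which says nothing of sites elsewhere.

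Levels differed widely among the members. Per kilobase of exon, the mean level in VAT Tregs without HFD (14 libraries, week 0 and NCD) was highest for Tsc22d3, at 108.9 CPM per kb. Tsc22d3 encodes GILZ, a leucine zipper protein that mediates part of the anti-inflammatory action of glucocorticoids. Nr3c1 followed at 54.1 CPM per kb and Sgk1, a kinase that phosphorylates Foxo factors, at 17.9 CPM per kb. Ddit4 and Fkbp5 lay side by side at 5.97 and 5.80 CPM per kb. Klf9, a zinc finger transcription factor, stood at 1.42 CPM per kb, and Zbtb16 at 0.136 CPM per kb. In spleen Tregs without HFD (14 libraries) the order was the same, from Tsc22d3 at 62.4 CPM per kb to Nr3c1 at 20.6, Sgk1 at 5.90, Ddit4 at 5.84, Fkbp5 at 3.36, Klf9 at 0.509 and Zbtb16 at 0.0118. The ranges over libraries overlapped for Ddit4 and Fkbp5 and for Klf9 and Zbtb16 in both tissues, and for Sgk1 and Ddit4 in spleen. These neighbours were not tested against each other. The exon models of the 7 genes overlap no exon of another gene in GENCODE M21.

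**Figure D1:**
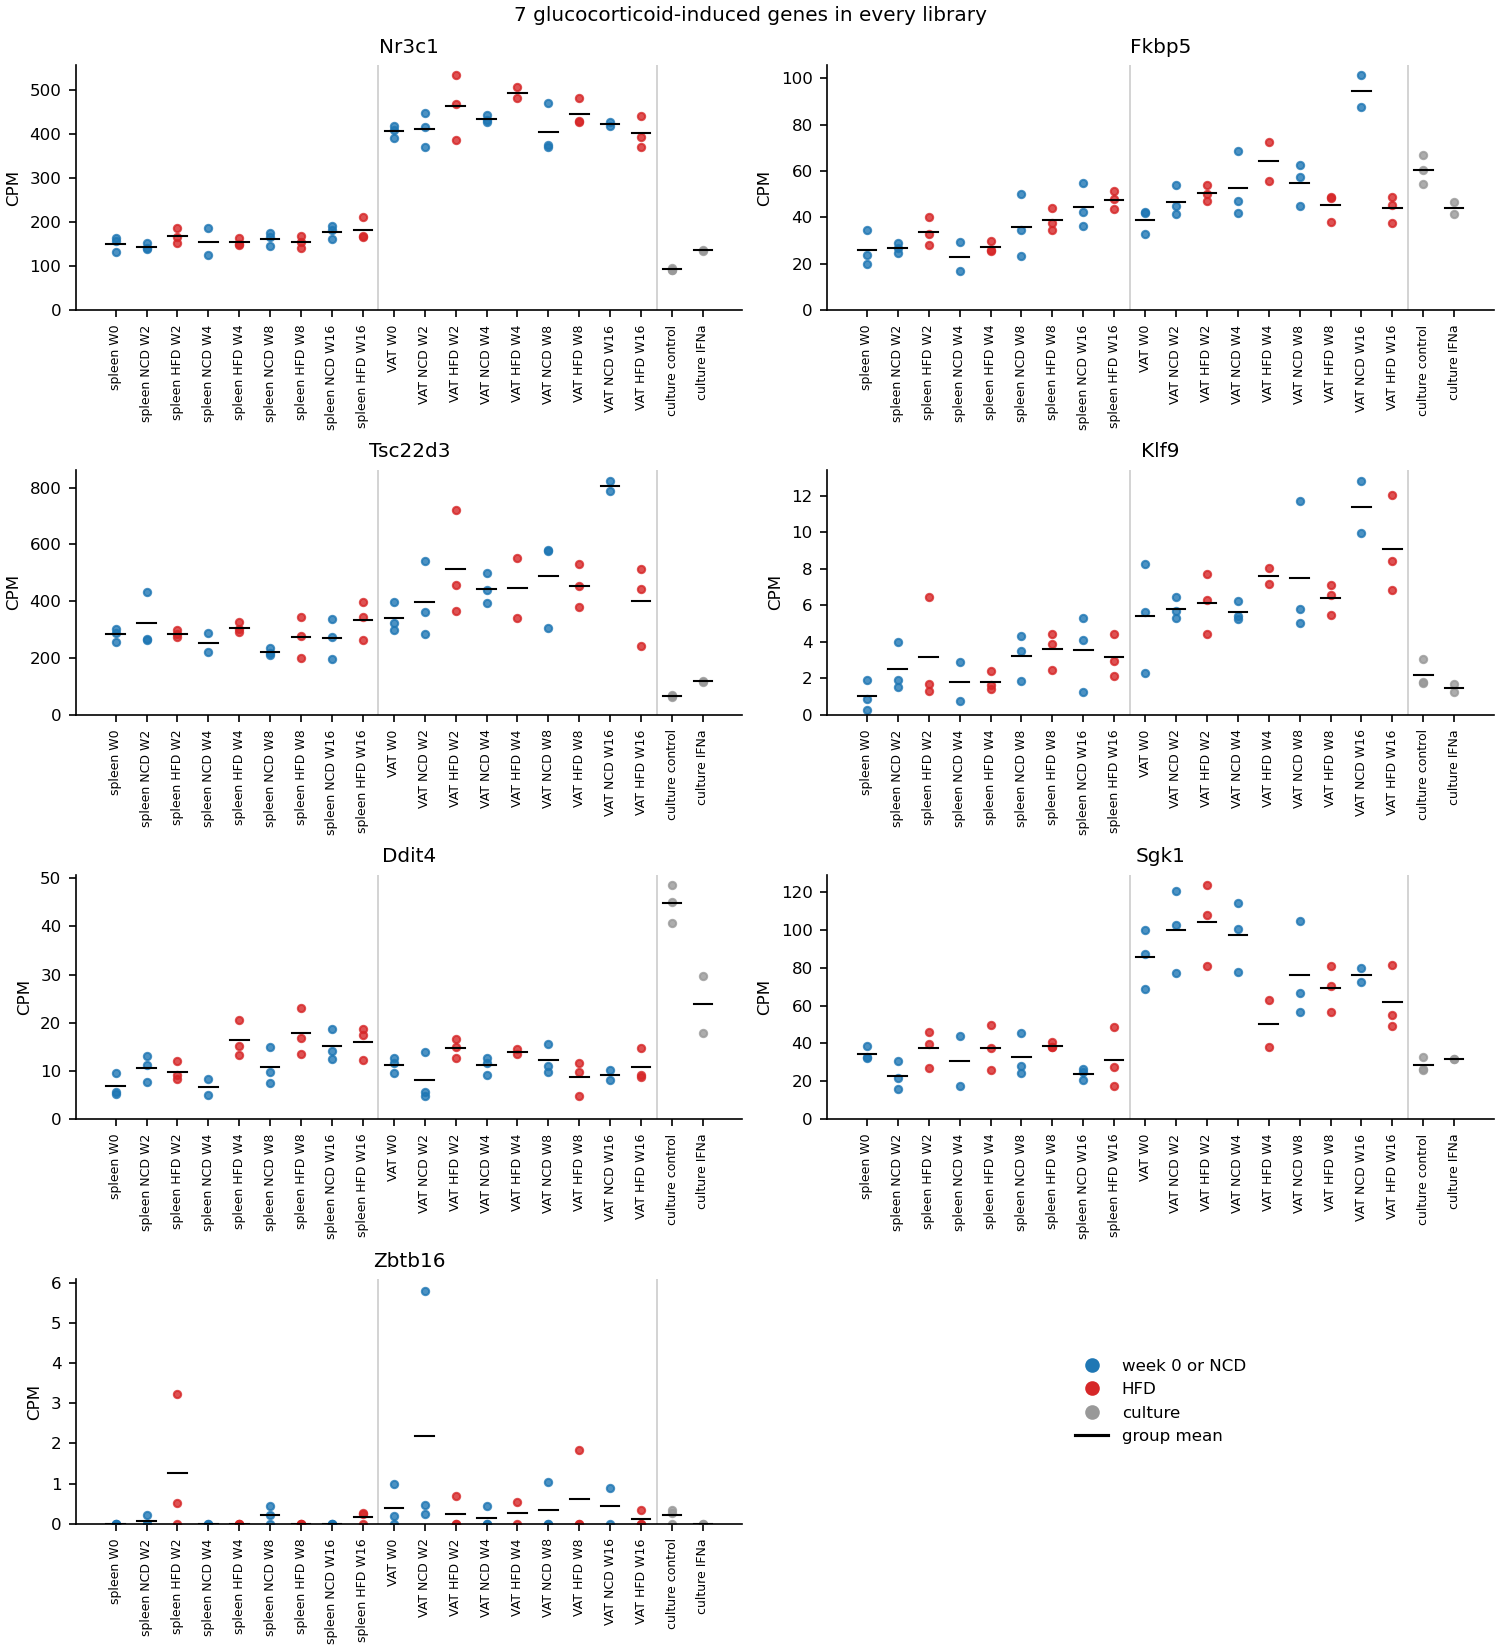
Level of each of the 7 genes in all 56 libraries (y axis, CPM, linear from 0; x axis, groups of tissue, diet and week, then cultures). Each point is 1 library and each bar the group mean. Nr3c1 in VAT (371.2 to 534.3 CPM) lies above every spleen library (124.2 to 210.5 CPM). Fkbp5 and Tsc22d3 peak in the 2 VAT NCD week 16 libraries, and Ddit4 is highest in the control cultures.

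The first comparison asked how the members differ between VAT and spleen Tregs. Without HFD, 6 of 7 members were higher in VAT, and Ddit4 did not pass the test. Here and below, a gene is called when edgeR's quasi-likelihood test gives a Benjamini-Hochberg adjusted p below 0.05 over all genes tested. This comparison called 59.1% of all 15601 genes tested, 4533 higher and 4688 lower, so a called member is common here. The median log2 difference was 1.40 over the members and -0.04 over all genes.

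Nr3c1, the receptor, ranged from 371.2 to 471.2 CPM with a median of 418.7 in the 14 VAT libraries without HFD. In the 14 spleen libraries without HFD it ranged from 124.2 to 190 CPM with a median of 159. The 2 sets did not overlap, and the lowest VAT library held more than the highest spleen library. The fitted difference was 2.63-fold (log2 1.40 ± 0.06 SE, edgeR adjusted p 4.73e-25). With HFD the difference was 2.72-fold (log2 1.45 ± 0.06, edgeR adjusted p 7.11e-24). Over all mouse libraries the receptor had the smallest SD relative to its mean of the 7 members in each tissue, at 429.7 ± 43.4 CPM in VAT (SD, n = 25) and 161 ± 19.6 CPM in spleen (SD, n = 26).

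Sgk1 ranged from 56.7 to 120.4 CPM in VAT without HFD (median 83.6) and from 16.2 to 45.6 CPM in spleen (median 27.5). These sets did not overlap either. Sgk1 was 3.01-fold higher in VAT (log2 1.59 ± 0.15, edgeR adjusted p 3.26e-12). With HFD the VAT libraries ranged from 38 to 123.9 CPM and the spleen libraries from 17.4 to 49.7 CPM, and the difference was 1.88-fold (log2 0.91 ± 0.16, edgeR adjusted p 7.91e-06).

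Fkbp5 encodes FKBP51, a co-chaperone that lowers the receptor's affinity for hormone and so feeds back on it. It ranged from 32.6 to 101.4 CPM in VAT without HFD (median 46.0) and from 16.6 to 54.9 CPM in spleen (median 29.2). The sets overlapped, yet the means differed by more than the spread: 1.81-fold (log2 0.85 ± 0.11, edgeR adjusted p 1.99e-09). Tsc22d3 ranged from 285.4 to 825.1 CPM in VAT (median 419.1) and from 194.7 to 433.9 CPM in spleen (median 265), again with overlap. Its difference was 1.76-fold (log2 0.81 ± 0.13, edgeR adjusted p 1.60e-06). Klf9 was scarce in both tissues, at 2.29 to 12.8 CPM in VAT and 0.266 to 5.30 CPM in spleen, and 3.06-fold higher in VAT (log2 1.61 ± 0.26, edgeR adjusted p 1.05e-06).

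Ddit4 encodes REDD1, an inhibitor of the growth kinase complex mTORC1. It ranged from 4.72 to 15.7 CPM in VAT and from 4.94 to 18.8 CPM in spleen without HFD, so the sets overlapped almost wholly (log2 0.10 ± 0.17, edgeR adjusted p 0.644). Zbtb16 encodes PLZF, a transcription factor that defines innate-like T cells. It had 47 counts in all 14 VAT libraries together and 4 counts in the 14 spleen libraries, with 6 and 11 libraries at 0. Of the 47 counts, 27 came from replicate 3 of VAT NCD week 2, at 5.80 CPM, whose 6 innate-like T cell and ILC markers also summed highest of its group, at 260.9 CPM against 137 and 210.5 CPM. The part of such cells in this value was not tested. Zbtb16 was called (log2 3.21 ± 1.06, edgeR adjusted p 0.00942), and without that library it had too few counts to be tested. It also missed the threshold with DESeq2 (adjusted p 0.0559) and on leaving out VAT NCD week 16 replicate 3, VAT NCD week 4 replicate 2 or VAT NCD week 8 replicate 1 (edgeR adjusted p 1 each time). Its fitted fold is no size to rely on, since whole groups stood at 0.

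With HFD (11 VAT and 12 spleen libraries), 5 members were called higher in VAT, against 47.4% of all genes called, and Ddit4 (log2 -0.32 ± 0.18) and Zbtb16 (log2 1.36 ± 0.95) did not pass. Zbtb16 had 16 counts in VAT and 19 in spleen there, with a single spleen library, HFD week 2 replicate 2, at 3.24 CPM. Fkbp5 differed by 1.39-fold (log2 0.48 ± 0.11, edgeR adjusted p 5.96e-04), Tsc22d3 by log2 0.58 (± 0.14, edgeR adjusted p 8.34e-04) and Klf9 by 2.52-fold (log2 1.34 ± 0.28, edgeR adjusted p 1.12e-04). Whether diet changed the tissue difference is tested in the comparisons of diet effects below.

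**Figure D2:**
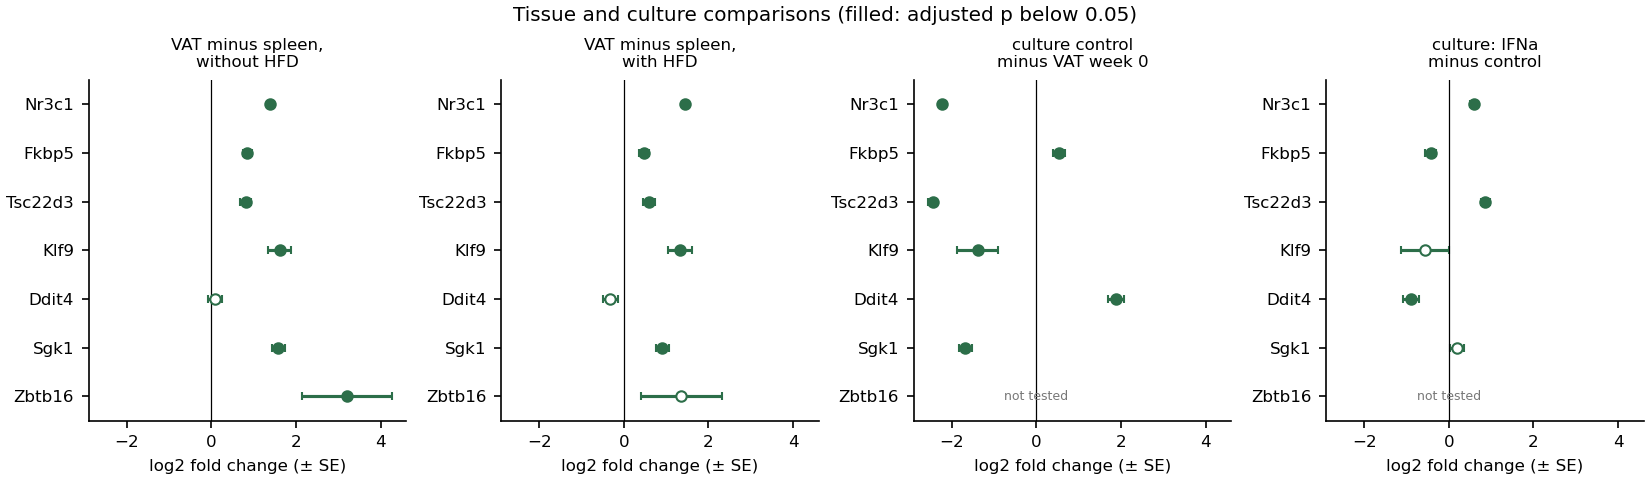
Log2 fold change of each member with its SE (x axis) in 4 comparisons: VAT against spleen without and with HFD, culture control against VAT week 0, and IFNa against control in culture. Filled points passed an adjusted p of 0.05. Filled points lie to the right in both tissue panels, 4 of 6 tested members lie to the left in culture control against VAT week 0, and 3 of 6 do with IFNa.

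Other genes of the pathway were read from fixed lists, without a test of the list. The tissue comparison without HFD called 59.1% of all genes tested, so called list genes are common here too. Of 30 other glucocorticoid-induced genes, 29 could be tested between tissues, and 20 were higher and 4 lower in VAT without HFD (median log2 2.17). The 3 with the smallest p were Nfkbia, the inhibitor of NF-kB (log2 2.75 ± 0.06, edgeR adjusted p 1.34e-35), Zfp36, which speeds decay of cytokine mRNAs (3.67 ± 0.10, edgeR adjusted p 7.12e-32), and the antiproliferative gene Btg2 (2.50 ± 0.07, edgeR adjusted p 4.82e-31). Of 8 testable cytokine and adhesion genes that glucocorticoids are known to repress, 7 were higher in VAT and none lower, among them Tnf (1.80 ± 0.09) and Cxcl10 (3.59 ± 0.37). Of 17 receptor chaperones and coregulators, 11 were higher and 1 lower, with Hsp90aa1 at 1.28 ± 0.09, Hspa8 at 0.97 ± 0.07 and the corepressor Ncor1 at 0.54 ± 0.04.

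In the list of steroid supply, the exporter gene Abcb1a was lower in VAT (log2 -0.56 ± 0.10, edgeR adjusted p 9.69e-06) and its paralogue Abcb1b higher (log2 0.59 ± 0.18, edgeR adjusted p 0.00526). Hsd11b1, which regenerates active glucocorticoid inside cells, did not pass the test (log2 0.04 ± 0.07, edgeR adjusted p 0.651), and its level was 110.6 to 202 CPM in VAT and 118.4 to 180.5 CPM in spleen over all mouse libraries. In the list around Sgk1, 2 of 9 genes were higher and 6 lower. Foxo1, a substrate of Sgk1 family kinases, fell by 1.51 on the log2 scale, and S1pr1, which lets T cells leave lymphoid organs, by 1.59.

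Immediate early and heat shock genes, which tissue digestion and sorting can induce, moved with these differences. Of 20, 19 were higher in VAT without HFD and 1 lower, and their summed level was 14720 to 27540 CPM in VAT against 819.1 to 1340 CPM in spleen. Their part in the member differences was not tested. The sum of 6 general Treg markers also separated the tissues, at 5721 to 8607 CPM in VAT and 2986 to 4360 CPM in spleen. The part of these markers in the member differences was not tested. So did the sum of 5 endothelial markers separate them, at 33.7 to 142 CPM in VAT and 146 to 373.1 CPM in spleen. Nearly all of it was Pecam1, which T cells also express, while Cdh5 was at 0 in 18 of 25 VAT and 22 of 26 spleen libraries. Nfkbia, Zfp36, Btg2 and Dusp1 are themselves also immediate early response genes.

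The next comparisons asked whether HFD changed the members within a tissue. In VAT, Fkbp5 was the 1 member called in any of the 4 weeks, at week 16, when it was lower with HFD. No member was called at week 2, 4 or 8 or in the mean of the 4 weeks with edgeR or DESeq2. These comparisons called 0.0565%, 0.0212%, 1.33% and 4.2% of 14164 genes, and week 16 called 9.24%. By edgeR at an unadjusted p below 0.05 there was 1 member at week 2 (Ddit4, log2 0.86 ± 0.37, edgeR adjusted p 0.419), 1 at week 4 (Sgk1, log2 -0.93 ± 0.29, edgeR adjusted p 0.25), 0 at week 8 and 2 in the mean (Fkbp5, log2 -0.25 ± 0.10, and Sgk1, log2 -0.33 ± 0.13).

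Fkbp5 at week 16 stood at 87.6 and 101.4 CPM in the 2 VAT NCD libraries and at 37.6, 48.9 and 45.3 CPM in the 3 VAT HFD libraries. The NCD libraries were the high ones: they exceeded all other 23 VAT libraries, which ranged from 32.6 to 72.5 CPM, while the HFD libraries lay among them. Fkbp5 fell by 1.10 on the log2 scale with HFD (± 0.20 SE, 0.468-fold, edgeR adjusted p 5.53e-04). Leaving out either NCD library gave log2 -1.22 and -0.98 with edgeR adjusted p 0.00405 and 0.022. Set against the NCD libraries of weeks 2, 4 and 8 instead, an alternative chosen after seeing the data, HFD week 16 differed by log2 -0.23 (edgeR adjusted p 0.414).

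Tsc22d3 also had its highest VAT levels in the NCD week 16 libraries. It stood at 789 and 825.1 CPM in the NCD week 16 libraries and at 240.7, 514.4 and 442.9 CPM in the HFD week 16 libraries, with 285.4 to 721.9 CPM in the 20 VAT libraries of other weeks. The groups did not overlap, but the 3 HFD libraries spread widely, with replicate 1 below every other VAT library, and the difference did not pass with edgeR (log2 -1.01 ± 0.35, adjusted p 0.0878). DESeq2 placed it just past the threshold (adjusted p 0.0414). Klf9 at week 16 was 9.97 and 12.8 CPM with NCD and 8.42, 12.0 and 6.84 CPM with HFD, with overlap. Nr3c1, at 418.6 and 427.6 CPM with NCD and 371.5, 440.6 and 392.5 CPM with HFD, overlapped too (log2 -0.07 ± 0.12, edgeR adjusted p 0.818). The median over the 6 members tested was -0.30 and over all genes 0.02.

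Sgk1 at week 4 was 114.2, 77.8 and 100.7 CPM in VAT with NCD and 38 and 62.9 CPM with HFD, so the 2 HFD libraries lay below the 3 NCD libraries. At week 16 it was 72.4 and 79.8 CPM with NCD and 55.0, 81.4 and 49.1 CPM with HFD, with overlap. Ddit4 at week 2 was 13.9, 5.69 and 4.72 CPM with NCD and 16.6, 14.9 and 12.7 CPM with HFD, with 1 NCD library above the lowest HFD library.

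Time on NCD showed the other side of the Fkbp5 difference. In VAT, NCD week 16 against week 0 called 1 member, Fkbp5, and 0.713% of all genes. Week 0 libraries held 42.2, 42.0 and 32.6 CPM, all below the week 16 values, and the rise was 2.41-fold (log2 1.27 ± 0.20, edgeR adjusted p 0.00298). Without NCD week 16 replicate 2 the adjusted p was 0.0536 (log2 1.38). Tsc22d3 was at 322, 397.9 and 299.1 CPM at week 0, again below both week 16 values, and did not pass with edgeR (log2 1.24 ± 0.35, adjusted p 0.116), while DESeq2 gave an adjusted p of 0.0237. Klf9 was at 8.23, 5.65 and 2.29 CPM at week 0 (log2 1.06 ± 0.43, edgeR adjusted p 0.272). HFD week 16 against HFD week 2 in VAT called 0 of 6 members with edgeR, against 7.3% of all genes. There Sgk1 was the 1 member with an unadjusted p below 0.05 (log2 -0.75 ± 0.24, edgeR adjusted p 0.0652), and DESeq2 called Sgk1 alone (adjusted p 0.0351). Sgk1 was also called by edgeR without HFD week 16 replicate 2 (adjusted p 0.0213) or HFD week 2 replicate 1 (adjusted p 0.0467). Marker sums also differed between VAT week 0 and NCD week 16 without overlap: innate-like T cell and ILC genes were at 112.8 to 168.7 against 55.96 to 85.3 CPM, B cell genes at 10.4 to 16.7 against 2.68 to 5.51 CPM, and endothelial genes at 88.5 to 114.1 against 33.7 to 37.8 CPM. VAT Treg genes were at 5201 to 5963 CPM at week 0 and 8463 to 9359 CPM at NCD week 16. General Treg genes were at 6016 to 6376 against 7292 to 7467 CPM, and immediate early and heat shock genes at 18670 to 20250 against 26690 to 27540 CPM. Macrophage genes were at 4.58 to 8.48 against 1.98 to 3.64 CPM, and adipocyte genes at 0.764 to 2.83 against 4.19 to 5.56 CPM. The part of any of these genes in the Fkbp5 rise was not tested. The week 16 diet comparison and the NCD time comparison share the 2 NCD week 16 libraries.

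**Figure D3:**
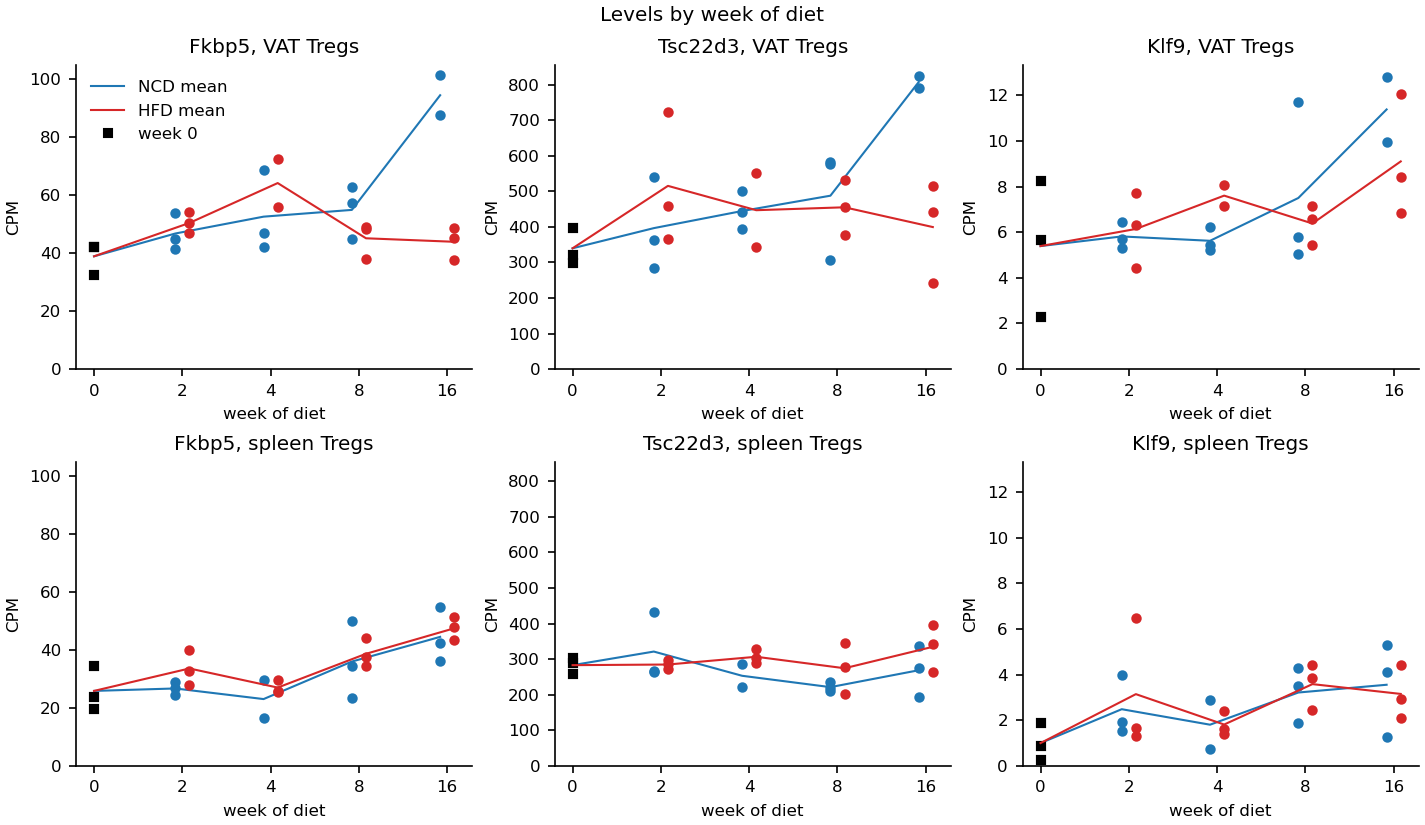
Level (y axis, CPM, from 0) of Fkbp5, Tsc22d3 and Klf9 by week of diet (x axis, weeks evenly spaced, not to scale) in VAT and spleen Tregs. Points are libraries, squares week 0 and lines group means. In VAT, all 3 genes are highest with NCD at week 16 on average, where Fkbp5 reads 87.6 and 101.4 CPM against 37.6 to 48.9 CPM with HFD.

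Beside the members, 27 other glucocorticoid-induced genes could be tested at VAT week 16, and 1 was higher and 9 lower with HFD (median log2 -0.29). The 3 with the smallest p were Anxa1, which encodes the anti-inflammatory protein annexin A1 (log2 -3.07 ± 0.35, edgeR adjusted p 2.43e-05), the metallothionein Mt1 (-2.20 ± 0.32, edgeR adjusted p 3.80e-05) and Zfp36 (-1.70 ± 0.23, edgeR adjusted p 4.09e-05). Anxa1 was at 1522 and 1786 CPM with NCD and 106.4, 314 and 167.9 CPM with HFD. It stood at 576.9, 462.1 and 525 CPM at week 0, between the 2 diet groups of week 16. The other 6 that were lower were Btg2, Gadd45b, Cdkn1a, Nfkbia, Mt2 and Dusp1, and Bcl2l11, a killer of T cells, was higher (log2 1.47, edgeR adjusted p 0.00371). These 7 are named after their values were seen. In NCD week 16 against week 0, 5 of 27 were higher and 1 lower, among them Zfp36 (1.30 ± 0.23), Btg1 (0.86 ± 0.17) and Irs2 (1.22 ± 0.25).

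Of 17 chaperones and coregulators only Ncor1 was called at VAT week 16, lower with HFD (log2 -0.39 ± 0.10, edgeR adjusted p 0.00802). In the list around Sgk1, Foxo1 was higher with HFD (log2 1.12 ± 0.21, edgeR adjusted p 7.31e-04). Among the 20 immediate early and heat shock genes, 12 fell with HFD at VAT week 16 and none rose, and their summed level was 26690 to 27540 CPM with NCD against 7609 to 16370 CPM with HFD. It was 18670 to 20250 CPM at week 0. Marker sums of other cells and of Tregs also separated the 2 diet groups of VAT week 16 without overlap. Between NCD and HFD, innate-like T cell and ILC genes were at 55.96 to 85.3 against 125.5 to 199.8 CPM, B cell genes at 2.68 to 5.51 against 13.3 to 24.9 CPM, and endothelial genes at 33.7 to 37.8 against 77.6 to 142 CPM. Macrophage genes were at 1.98 to 3.64 with NCD against 4.12 to 8.25 CPM with HFD. Adipocyte genes were at 4.19 to 5.56 with NCD against 0 to 0.708 CPM with HFD, stromal genes at 4.41 to 5.56 against 0.896 to 2.65 CPM, and VAT Treg genes at 8463 to 9359 against 3161 to 5149 CPM. The B cell gene Pax5 was at 0 in 22 of 25 VAT libraries and the endothelial gene Cdh5 in 18. The part of any of these genes in the Fkbp5 difference was not tested.

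In spleen, no member was called for diet at any week or in the mean of weeks with edgeR. These comparisons called 0.0272%, 1.24%, 0% and 0% of 14686 genes at weeks 2, 4, 8 and 16 and 0.933% in the mean. At an unadjusted p below 0.05 there was 1 member at week 2 (Sgk1), 1 at week 4 (Ddit4), 1 at week 8 (Ddit4), 0 at week 16 and 2 in the mean (Ddit4 and Sgk1). DESeq2 called Ddit4 at week 4 and no other member, and gave Ddit4, Sgk1, Fkbp5 and Klf9 no adjusted p at week 8. Ddit4 at spleen week 4 was 4.94 and 8.31 CPM with NCD and 15.2, 13.4 and 20.6 CPM with HFD, without overlap (log2 1.29 ± 0.39, edgeR adjusted p 0.136, DESeq2 adjusted p 0.0456). Averaged over weeks, Ddit4 differed by log2 0.49 ± 0.17 (edgeR adjusted p 0.177) and Sgk1 by 0.40 ± 0.17 (edgeR adjusted p 0.267).

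Fkbp5 at spleen week 16 was 42.4, 36.1 and 54.9 CPM with NCD and 51.3, 47.7 and 43.4 CPM with HFD, with full overlap (log2 0.08 ± 0.25, edgeR adjusted p 0.98). Both week 16 groups lay above the 3 week 0 libraries, at 23.6, 19.6 and 34.3 CPM. The NCD difference over time in spleen was 1.73-fold but did not pass (log2 0.79 ± 0.25, edgeR adjusted p 0.174). NCD week 16 against week 0 in spleen called 0 of 6 members with edgeR and with DESeq2, and 0.654% of all genes, and 3 members had an unadjusted p below 0.05 (Fkbp5, Klf9 and Ddit4). Ddit4 was at 5.31, 5.55 and 9.56 CPM at week 0 and 18.8, 14.2 and 12.5 CPM at NCD week 16 (log2 1.15 ± 0.35, edgeR adjusted p 0.136). HFD week 16 against HFD week 2 in spleen called 0 members with edgeR and with DESeq2 and 0% of all genes, and Ddit4 was the 1 member with an unadjusted p below 0.05 (log2 0.70 ± 0.34).

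**Figure D4:**
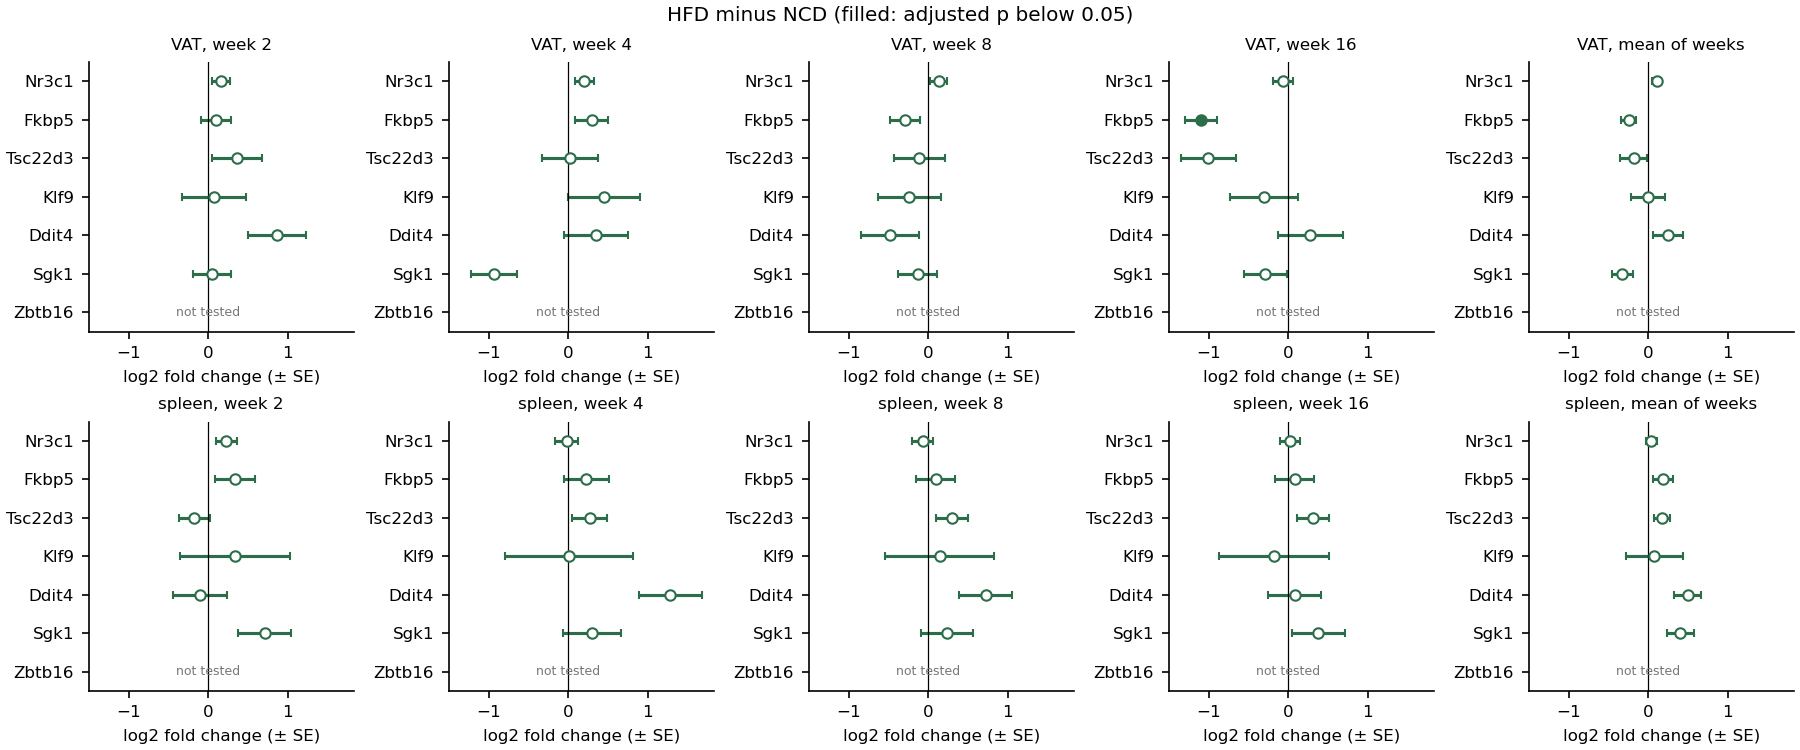
Log2 fold change of HFD against NCD with its SE (x axis) for each member in VAT (top) and spleen (bottom) at weeks 2, 4, 8 and 16 and as their mean. Filled points passed an adjusted p of 0.05, which holds for Fkbp5 at VAT week 16 alone, at -1.10. Zbtb16 had too few counts to be tested.

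Whether diet acted differently in the 2 tissues was tested as an interaction in a fit of all 51 mouse libraries. This fit treats libraries as independent. Like-numbered VAT and spleen libraries of HFD week 16 deviated together from their group means (r 0.362, 0.144 and 0.279 over genes). At week 16, 1 member was called, Fkbp5, against 4.46% of all genes: its HFD effect in VAT minus that in spleen was log2 -1.21 ± 0.33 (edgeR adjusted p 0.0195). The call was lost on leaving out VAT NCD replicate 3 (adjusted p 0.133), VAT HFD replicate 1 (0.0577), spleen NCD replicate 2 (0.076) or spleen HFD replicate 1 (0.0521) of week 16, with log2 values between -1.40 and -1.06 over all libraries left out. Tsc22d3 lay at the threshold (log2 -1.35 ± 0.41, edgeR adjusted p 0.0503) and was past it with DESeq2 (adjusted p 0.0225). It was also past it with edgeR without the filter on low counts (adjusted p 1.23e-09), and without VAT HFD replicate 2 (adjusted p 0.0252), spleen HFD replicate 1 (0.0440) or spleen NCD replicate 2 (0.0433) of week 16. For the mean of 4 weeks, 0 members were called with edgeR, against 2.44% of all genes, and 2 had an unadjusted p below 0.05. These were Sgk1 (log2 -0.75 ± 0.23, edgeR adjusted p 0.0717, DESeq2 adjusted p 0.0321) and Fkbp5 (log2 -0.45 ± 0.16, edgeR adjusted p 0.153). Sgk1 passed with edgeR on leaving out VAT HFD week 16 replicate 2 (adjusted p 0.0455), spleen HFD week 16 replicate 3 (0.0299), spleen HFD week 4 replicate 1 (0.0486), spleen NCD week 2 replicate 1 (0.0451), spleen NCD week 4 replicate 1 (0.0142) or spleen NCD week 8 replicate 3 (adjusted p 0.03995). Without the filter, edgeR called Sgk1 (adjusted p 2.73e-04) and Tsc22d3 (adjusted p 0.0128).

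The members did not move as 1 block within a tissue. As a description over the 25 VAT libraries, log2 levels of Fkbp5 and Tsc22d3 had a Pearson r of 0.70, and over the 26 spleen libraries -0.04. For Fkbp5 and Klf9 the values were 0.55 and 0.63. Fkbp5 and Ddit4 had -0.02 in VAT and 0.54 in spleen. Nr3c1 and Fkbp5 had 0.09 and 0.16, and Nr3c1 and Tsc22d3 0.27 and -0.07. Libraries share diet groups and weeks, and Klf9 and Ddit4 rest on few counts.

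For the 5 members whose mean log2 CPM reached 3, the 2 genes of most similar pattern were sought among 5554 candidates, over 51 libraries after subtracting each tissue's mean. For Nr3c1 they were Elf1 (r 0.651) and Samsn1 (0.589). For Fkbp5 they were Map6 (0.705) and Cass4 (0.697). For Tsc22d3 they were Rabac1 (0.648) and Ep300 (0.618). The Rabac1 value was 0.826 within VAT and 0.136 within spleen. For Ddit4 they were Snx20 (0.776) and Ccser2 (0.768), and for Sgk1 the first was Slbp (0.571). These are the highest of many correlations and carry no test.

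In culture, the question was whether IFNa, a type I interferon, changed the members in VAT Tregs. It split them: Nr3c1 and Tsc22d3 were higher with IFNa, Fkbp5 and Ddit4 lower, and Klf9 and Sgk1 did not pass. These were 4 of 6 members tested, against 21.7% of all 12604 genes called. The median log2 difference was -0.12 over the members and 0.01 over all genes.

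Tsc22d3 was at 69.9, 63.6 and 64.6 CPM in the control cultures and at 115.1 and 119.4 CPM with IFNa. The groups lay far apart relative to their spread, with a difference of 1.82-fold (log2 0.86 ± 0.11, edgeR adjusted p 6.05e-06). Nr3c1 was at 94.4, 91.5 and 90.3 CPM without and 136.8 and 135 CPM with IFNa, also without overlap (1.51-fold, log2 0.59 ± 0.10, edgeR adjusted p 1.50e-04).

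Ddit4 was at 40.7, 45.1 and 48.6 CPM in control cultures and at 29.8 and 17.9 CPM with IFNa, so the IFNa libraries were lower but differed from each other (0.538-fold, log2 -0.89 ± 0.19, edgeR adjusted p 0.00247). Without IFNa replicate 2, the lower one, it did not pass (log2 -0.52, edgeR adjusted p 0.078). Fkbp5 was at 60.5, 66.9 and 54.2 CPM without and 41.4 and 46.7 CPM with IFNa, without overlap (0.744-fold, log2 -0.43 ± 0.14, edgeR adjusted p 0.0277). This call was lost on leaving out either IFNa library or control replicate 1 or 2 (edgeR adjusted p 0.0531 to 0.119). Fkbp5 and Tsc22d3 thus differed in opposite directions in the same cultures. Sgk1 was at 32.8, 25.8 and 26.6 CPM without and 31.9 and 31.7 CPM with IFNa, with overlap (log2 0.20 ± 0.17, edgeR adjusted p 0.466). Klf9, at few counts, was at 1.71, 3.06 and 1.76 CPM without and 1.69 and 1.26 CPM with IFNa, just without overlap (log2 -0.56 ± 0.57, edgeR adjusted p 0.536). Zbtb16 had 4 counts in the 3 control libraries and 0 in the 2 IFNa libraries.

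Of 26 other glucocorticoid-induced genes tested in culture, 6 were higher and 5 lower with IFNa (median log2 0.01). Rgs2, a regulator of G protein signalling, was higher (1.59 ± 0.22), and Mt1 (-1.58 ± 0.13) and Sesn1 (-1.07 ± 0.10) were lower. In the list of steroid supply, Hsd11b1 was at 232.1, 231.5 and 246.7 CPM without IFNa and at 71.6 and 72.8 CPM with it (log2 -1.68 ± 0.10, edgeR adjusted p 4.14e-11). The drug and steroid exporter Abcb1a was higher (1.35 ± 0.20). In the list around Ddit4, 7 of 13 genes were higher and 3 lower: the amino acid stress genes Ddit3 (2.65 ± 0.13) and Asns (1.63 ± 0.10) were higher, and the hypoxia-induced gene Bnip3 (-1.67 ± 0.12) lower. Of 7 cytokine and adhesion genes 5 were higher, with Cxcl10, itself an interferon-induced gene, at 6.20 ± 0.15. Summed immediate early and heat shock genes were 1374 to 1703 CPM without and 1592 to 1644 CPM with IFNa, with overlap. The 6 Treg markers summed to 6741 to 7125 CPM without and 4282 to 4619 CPM with IFNa. The sums of VAT Treg and stromal genes overlapped, and the other sums separated without overlap. Macrophage genes were at 8.45 to 15.6 CPM without and 3.93 to 5.28 CPM with IFNa. Erythroid genes were at 4.62 to 5.28 CPM without and 3.93 to 4.01 CPM with it. The 6 B cell markers summed to 70.9 to 86.5 CPM without and 49.2 to 54.3 CPM with it. Most of that sum was Cd79b, while Ms4a1 was at 0 in both IFNa libraries and in 1 of 3 control libraries. Higher with IFNa were innate-like T cell and ILC genes (31.7 to 32.3 against 13.6 to 17.9 CPM) and NK and CD8 cell genes (52.5 to 55.3 against 41.4 to 45.1 CPM). So were endothelial genes (211.5 to 221.4 against 197.3 to 201.3 CPM) and adipocyte genes (2.53 to 3.61 against 0.833 to 1.94 CPM). The part of any of these genes in the member differences was not tested.

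Control cultures were also set beside VAT Tregs at week 0, taken directly from mice. All 6 members tested differed, against 65.5% of 12536 genes called: 4 were lower in culture and Fkbp5 and Ddit4 higher. The cells differ in genotype, age, clonotype, IL-33 given to the mice and sort as well as in culture, and these cannot be told apart. Nr3c1 was 0.214-fold its week 0 level (log2 -2.23 ± 0.08, edgeR adjusted p 7.55e-14), with 90.3 to 94.4 CPM in culture and 390.4 to 418.8 CPM at week 0. Tsc22d3 was 0.183-fold (log2 -2.45 ± 0.11, edgeR adjusted p 8.57e-13) and Sgk1 0.313-fold (log2 -1.68 ± 0.16, edgeR adjusted p 3.19e-08).

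Ddit4 was higher in culture, at 40.7 to 48.6 CPM against 9.67 to 12.6 CPM at week 0 (3.69-fold, log2 1.88 ± 0.18, edgeR adjusted p 5.58e-08). Fkbp5 was higher by less (1.46-fold, log2 0.55 ± 0.14, edgeR adjusted p 0.00242). Klf9 was lower (log2 -1.38 ± 0.49, edgeR adjusted p 0.0184), and this call was lost without VAT week 0 replicate 1 (adjusted p 0.129) or control replicate 1 or 3 (0.0642 and 0.0671). Of the 25 other glucocorticoid-induced genes tested, 3 were higher and 19 lower in culture, led by Dusp1 (-6.03 ± 0.09), Gadd45b (-3.69 ± 0.08) and Rgs2 (-6.42 ± 0.11). In the list around Ddit4, 6 of 12 were higher and 3 lower, with Trib3 (5.28 ± 0.37), Bnip3 (4.03 ± 0.13) and Sesn2 (1.95 ± 0.17) higher. Of 19 immediate early and heat shock genes tested, 18 were lower in culture and none higher, and their sum was 1374 to 1703 CPM against 18670 to 20250 CPM at week 0. B cell genes, almost wholly Cd79b, summed to 70.9 to 86.5 CPM in culture against 10.4 to 16.7 CPM at week 0, and endothelial genes to 197.3 to 201.3 against 88.5 to 114.1 CPM. Innate-like T cell and ILC genes were at 13.6 to 17.9 CPM in culture against 112.8 to 168.7 CPM, and VAT Treg genes at 3794 to 3916 against 5201 to 5963 CPM. General Treg genes were at 6741 to 7125 CPM in culture against 6016 to 6376 CPM. None of these ranges overlapped, and their part in the member differences was not tested.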

How the data were processed

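The deposited file holds unnormalized read counts by gene symbol for 56 libraries. Per the submitters' processing notes, reads were aligned with STAR 2.7.3a to mm10 and counted with featureCounts. No source used here gives the annotation release, the strand setting or the treatment of multi-mapping reads. Of 55011 symbols, 53009 (96.4%) matched GENCODE M21. Groups came from the titles.

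Counts were fitted in R 4.3.3 with edgeR 4.0.16 (TMM, filterByExpr by group, robust quasi-likelihood) separately for VAT, spleen, both tissues, cultures, and cultures with VAT week 0. There were 20 comparisons, with Benjamini-Hochberg adjustment over all genes of each. The SE is the log2 fold change divided by the square root of F. DESeq2 1.42.0, RLE normalization, no filter, a fit of only the groups compared, replicate blocks and leaving out each library were alternatives. An arm left with 1 library borrowed the spread of the remaining groups. Setting VAT HFD week 16 against NCD weeks 2, 4 and 8, and means without week 16, were chosen after seeing the data.

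The members and gene lists were chosen with earlier results of these data known. Named list genes were, per list and comparison, up to 3 called genes with the smallest p and a mean log2 CPM of at least 3. Like-numbered libraries were checked for pairing and did not deviate together in general (correlation over 0.1 in 3 of 21 HFD and NCD pairs and 3 of 24 VAT and spleen pairs, the latter 3 being all pairs of HFD week 16). No 2 replicates agreed within sampling noise. On simulated counts sized like VAT week 16, the test recovered 38 of 100 genes changed 2-fold and 68 of 100 changed 4-fold, with 4 false calls among 13657 genes. Results for some genes are not reported here. Figures were drawn with matplotlib.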

Additional observations from a re-analysis of the deposited data

Results flagged for a closer look

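The week 16 effect of HFD on Fkbp5 differed between tissues by a test of the difference itself: the log2 effect in VAT minus that in spleen was -1.21 ± 0.33 SE (edgeR adjusted p 0.0195). Within tissues, the week 16 effect on Fkbp5 was log2 -1.10 in VAT and 0.08 in spleen. The call did not hold without VAT NCD replicate 3 (adjusted p 0.133), VAT HFD replicate 1 (0.0577), spleen NCD replicate 2 (0.076) or spleen HFD replicate 1 (0.0521) of week 16. With at most 3 libraries a group, no search for outlying libraries within groups was run.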

How the results depend on the processing

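Over 124 member results and 2099 values under alternatives, 2057 kept their side of the threshold, 18 lost a call, 24 gained one and 0 called values changed direction; 71 uncalled values changed sign. Of 331 counts of called members, 305 stayed within 1.5 times. DESeq2 gave 2 called members for VAT week 16, 2 for VAT NCD week 16 against week 0, 2 for the tissue difference at week 16, and 1 each for spleen week 4, VAT HFD week 16 against week 2 and the tissue difference of the mean. Without the filter the counts were 1 for VAT week 4, 1 for the VAT mean and 1 for VAT HFD week 16 against week 2 (Sgk1 each time), 2 for the tissue difference of the mean (Sgk1 and Tsc22d3) and 2 for that at week 16 (Fkbp5 and Tsc22d3). With NCD weeks 2, 4 and 8 as control, VAT week 16 gave 0, and fitting only the groups compared gave 2 for VAT NCD week 16 against week 0. Leaving out 1 library gave 0 to 1 for VAT NCD week 16 against week 0, 0 to 1 for VAT HFD week 16 against week 2, 0 to 1 for the tissue difference of the mean, 0 to 2 for that at week 16, and 2 to 4 for IFNa in culture. The cause of these moves was not tested. With the replicate number as a block, the counts equalled those without it in all 20 comparisons (1 for VAT week 16, 6 for VAT against spleen without HFD), and the Fkbp5 tissue difference at week 16 was log2 -1.22 (edgeR adjusted p 0.0211). Over the whole table, VAT week 16 called 1309 genes, 789 with only the groups compared, and 671 and 643 without NCD week 16 replicate 2 or 3, while NCD week 16 against week 0 called 101, between 1 and 37 without 1 library, 323 with DESeq2, 399 without the filter and 830 with only the groups compared. With 2 or 3 libraries a group, low counts limit Klf9 and Ddit4 and leave Zbtb16 near the floor.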

Other observations

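Nr3c2, the mineralocorticoid receptor, which also binds glucocorticoids, was scarcer than Nr3c1 in CPM. It was at 3.19, 2.13 and 8.94 CPM in spleen at week 0, at 16.4, 15.9 and 14.7 CPM at NCD week 16 and at 20.8, 14.5 and 15.8 CPM at HFD week 16. Neither time comparison passed in spleen (NCD week 16 against week 0, log2 1.71 ± 0.50, edgeR adjusted p 0.127; HFD week 16 against week 2, log2 1.46 ± 0.50, edgeR adjusted p 0.49). In VAT it was at 1.98, 2.57 and 3.31 CPM at HFD week 2 and at 9.5, 12.6 and 10.9 CPM at HFD week 16, higher by log2 2.07 ± 0.64 (edgeR adjusted p 0.0438). In culture it was at or near the floor, at 0.211 to 0.786 CPM. This gene was named after its values were seen.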
